A study of Mus musculus with 16 samples.

Results

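Chemokine receptors are the G protein-coupled receptors with which leukocytes, microglia and some neural progenitors follow gradients of small secreted proteins, the chemokines. After an injury to the brain, chemokines made by glia, macrophages and endothelium recruit neutrophils and monocytes, whereas during development the Cxcl12 and Cxcr4 pair guides migrating neurons and keeps progenitors in place. The receptors described here are Ccr1, Ccr2, Ccr3, Ccr7, Cxcr2, Cxcr3, Cxcr4 and Cxcr6, 8 of the 20134 genes that had a value on every array. They were taken by name, and the probes were found through the RefSeq accession that each probe carries. The 8 genes had 9 probes, since Cxcr6 had a second and dimmer one, and for each gene the probe with the highest mean signal was used. Their known ligands are described beside them.

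The tissue was the right neocortex rostral from bregma, the side without the lesion, of male C57BL/6J mice. In the neonatal brain hemisuction animals (NBH, named NBI in the sample labels) the left cortex including the sensorimotor area was aspirated at P7, and the tissue was taken 1 week or 4 weeks later, at P14 or P35. In the adult brain hemisuction animals (ABH, named ABI in the labels) the left cortex including the sensorimotor area was aspirated at 8 to 12 weeks of age. By the methods the aspirated area reached further caudal and lateral from bregma than in NBH. The labels place the 2 samplings at 11 and 15 weeks of age. The control animals without surgery were P7, P14, P35 and 10 weeks old. RNA of 4 animals was pooled for each of the 8 groups, so each group is 1 pool without a biological replicate. A Cy3 and a Cy5 labeling of every pool went to an array of its own, 16 Agilent 8 × 60 K arrays in all.

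The values of the 2 dyes therefore measured labeling and hybridization, not the spread between animals, and no test between conditions could be made. All control pools lay in the upper row and all surgery pools in the lower row of each slide, so surgery and position on the slide cannot be told apart. The median spot intensity was 192.5 to 253 per array over a local background of 59 to 72, and 60.2% to 72.2% of the spots were well above background. All 10 marker genes of neocortical neurons were well above background in all 8 pools. Markers of the choroid plexus, which is no part of the neocortex, were high in 3 of the surgery pools. Their summed level, in multiples of the 75th percentile of the array, was 36.3 with Cy3 in NBH 1 week against 1.84 in control P14, 17.7 in NBH 4 weeks against 2.20 in control P35, and 29.1 in ABH 4 weeks against 2.09 in the 10 weeks control. The ABH 1 week value was 1.71. The part of this tissue in the receptor values was not tested.

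A level is given as the log2 intensity minus the 75th percentile of the array, so negative levels are dimmer than that percentile. A change is the level in the surgery pool minus the level in the control pool of the same dye. A change was called when it was at least 1.5-fold higher or at most 0.75-fold with both dyes. The methods of the study name these limits for their RT-PCR check, and they were applied here to the arrays. A comparison needed a signal well above background with both dyes in the surgery pool or the control pool, and when the other pool was dim the change is a bound. In a bulk sample fewer cells of a type and less RNA per cell cannot be told apart.

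The receptors were dim. Ccr7, the receptor that leads dendritic cells and T cells to lymph nodes, was the only one well above background on both arrays of all 8 pools. Cxcr6 reached this in 7 pools, Cxcr3 and Cxcr4 in 6, Ccr3 in 5 and Ccr2 in 1. Ccr1 and Cxcr2, receptors of monocytes and neutrophils, reached it in none, with 0 and 1 of the 16 arrays above background. The intensity of the receptor probes was between 73.5 and 408 before background correction, over a local background of 52 to 77. The number of receptors well above background on both arrays was 3 to 5 in each pool, with 5 in ABH 1 week, 4 in its 10 weeks control, 3 in NBH 1 week and 4 in control P14. The plot of levels by pool shows every array.

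**Figure D1:**
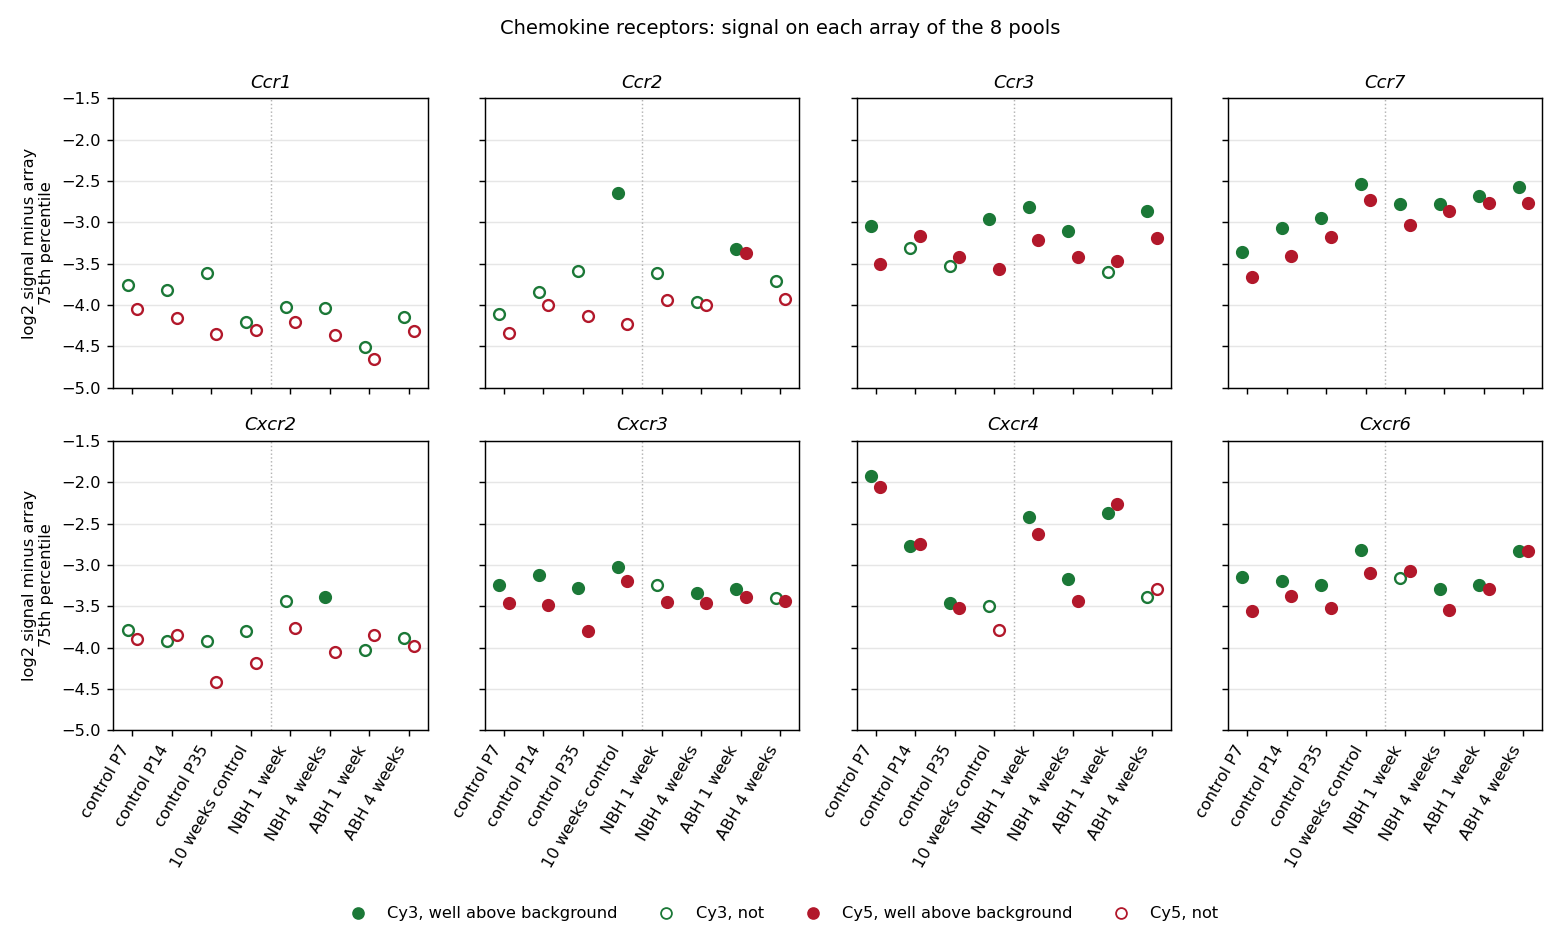
Level of each chemokine receptor on the 16 arrays, as log2 signal minus the 75th percentile of the array (y axis), in the 4 control pools and the 4 surgery pools (x axis). Green points are Cy3 arrays and red points Cy5 arrays, and open points are not well above background. Cxcr4 spans the widest range, from -1.92 in control P7 to -3.79 in the 10 weeks control, and ABH 1 week lies between control P7 and control P14.

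Cxcr4, the receptor of Cxcl12, was the only receptor past a limit with both dyes in any comparison. Its level in ABH 1 week was -2.37 with Cy3 and -2.27 with Cy5, against -3.50 and -3.79 in the 10 weeks control, where neither array was well above background. The change was 1.13 and 1.53, and the mean bound was at least 2.51-fold higher. The 2 arrays of ABH 1 week lay above both arrays of the control. Against the P35 control, in which Cxcr4 was well above background on both arrays at -3.47 and -3.52, the change was 1.18 on average on the log2 scale. By ABH 4 weeks the level was -3.38 and -3.29 and again not well above background, so that pool did not enter the comparison for Cxcr4.

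After neonatal surgery the changes of Cxcr4 stayed within the limits. The level in NBH 1 week was -2.42 and -2.62, against -2.77 and -2.75 in control P14, a change of 0.35 and 0.12. In NBH 4 weeks it was -3.17 and -3.43, against -3.47 and -3.52 in control P35, a change of 0.29 and 0.09. Both pools lay above their control with both dyes, and neither passed a limit. In NBH 4 weeks the direction was not the same under all settings. The mean change there was -0.23 with the deposited processed signal and -0.46 in the unscaled series table. In NBH 1 week the mean change lay between 0.08 and 0.35 over the alternatives.

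Among the controls, Cxcr4 was lower at P14 than at P7 and lower again at P35, and at 10 weeks it was not well above background. The level was -1.92 with Cy3 and -2.06 with Cy5 at P7. From P7 to P14 the mean change was -0.77 (SD 0.12 between the dyes). From P14 to P35 the change was -0.74 (SD 0.05). From P7 to 10 weeks the level was at least 3.15-fold lower, a bound since the 10 weeks control was dim. Of the 6 pools well above background on both arrays, the order from high to low was control P7, ABH 1 week, NBH 1 week, control P14, NBH 4 weeks and control P35, and neighbours kept this order with both dyes. The 10 weeks control and ABH 4 weeks were not well above background and were not ranked. ABH 1 week was 0.33 below control P7 and 0.20 above NBH 1 week, the latter within the SD of 0.22 between the dyes.

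The 3 genes with the profile most like that of Cxcr4 over the 8 pools were Kif20a, a kinesin of dividing cells, Fkbp10, a collagen chaperone of the endoplasmic reticulum, and Col8a1, a collagen chain. Of the 16761 genes searched, these had the smallest root mean square difference of the centred levels, 0.07 for Kif20a, 0.12 for Fkbp10 and 0.13 for Col8a1. Kif20a, for example, was at -1.51 in control P7, -3.23 in the 10 weeks control and -2.06 in ABH 1 week. With 1 pool for each point, this is a description of 8 values.

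The promoters of Cxcr4 and of the 2 ligands with the largest changes in ABH 1 week among those in the RefSeq promoter table, Cxcl10 and Ccl3, are given as the 250 bases before the annotated start. The table (GRCm38.p6) held 7 of the 8 receptors and 14 of the 22 ligands listed. The array headers name mm9, so the coordinates belong to the table and not to the probes. Capitals mark matches, on either strand, to TATAAA, to the interferon-stimulated response element (GAAA repeated after 2 bases of any kind) and to the NF-kB consensus. The Cxcr4 window is chr1:128592300-128592549, the Cxcl10 window chr5:92348890-92349139 and the Ccl3 window chr11:83649379-83649628, all on the minus strand and printed 5′ to 3′ along the gene.
Cxcr4: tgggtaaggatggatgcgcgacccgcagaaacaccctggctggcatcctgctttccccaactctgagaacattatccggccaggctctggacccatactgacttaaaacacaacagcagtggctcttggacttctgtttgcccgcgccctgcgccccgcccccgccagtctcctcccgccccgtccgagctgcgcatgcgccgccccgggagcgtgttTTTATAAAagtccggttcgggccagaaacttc
Cxcl10: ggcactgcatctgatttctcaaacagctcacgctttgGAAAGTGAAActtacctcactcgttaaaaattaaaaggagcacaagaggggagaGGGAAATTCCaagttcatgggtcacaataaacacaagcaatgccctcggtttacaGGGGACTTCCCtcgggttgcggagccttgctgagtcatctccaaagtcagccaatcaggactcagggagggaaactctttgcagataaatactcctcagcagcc
Ccl3: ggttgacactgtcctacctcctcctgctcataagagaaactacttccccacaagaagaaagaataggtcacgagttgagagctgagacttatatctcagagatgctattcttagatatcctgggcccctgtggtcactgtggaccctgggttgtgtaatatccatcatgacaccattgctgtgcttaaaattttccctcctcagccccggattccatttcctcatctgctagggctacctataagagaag
The Cxcr4 window held TATAAA on both strands in 1 overlapping stretch, 32 to 25 bases before the start, and no match to the other 2 motifs. The Cxcl10 window held 1 interferon-stimulated response element and 4 matches to the NF-kB consensus, of which 3 overlapped in 1 stretch. The Ccl3 window held none of the 3 motifs. Over all 32851 windows of the table, 12.4% held TATAAA, 2.98% the interferon-stimulated response element and 7.25% the NF-kB consensus. A match is a stretch of letters and not a measured site.

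In ABH 1 week, 6 of the 8 receptors could be compared. Cxcr4 was higher and none was lower, so 1 of 6 was called, while 10.8% of the 16320 genes compared were called, 4.44% higher and 6.37% lower. The median change of the 6 receptors was -0.16, beside -0.08 over all genes. In NBH 1 week, 0 of 5 receptors were called, against 0.899% of all genes, and the median of the receptors was 0.22, beside 0.06 over all genes. In NBH 4 weeks, 0 of 5 were called, against 0.964%, with a median of 0.19 beside 0.04. In ABH 4 weeks, 0 of 4 were called, against 0.626%, with a median of 0.05 beside 0.07. No p-value was computed, since each condition is 1 pool. The ABH comparisons share the 10 weeks control. By the labels the ABH pools were older than that control, at 11 and 15 weeks. Age and surgery therefore cannot be told apart in the ABH comparisons.

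**Figure D2:**
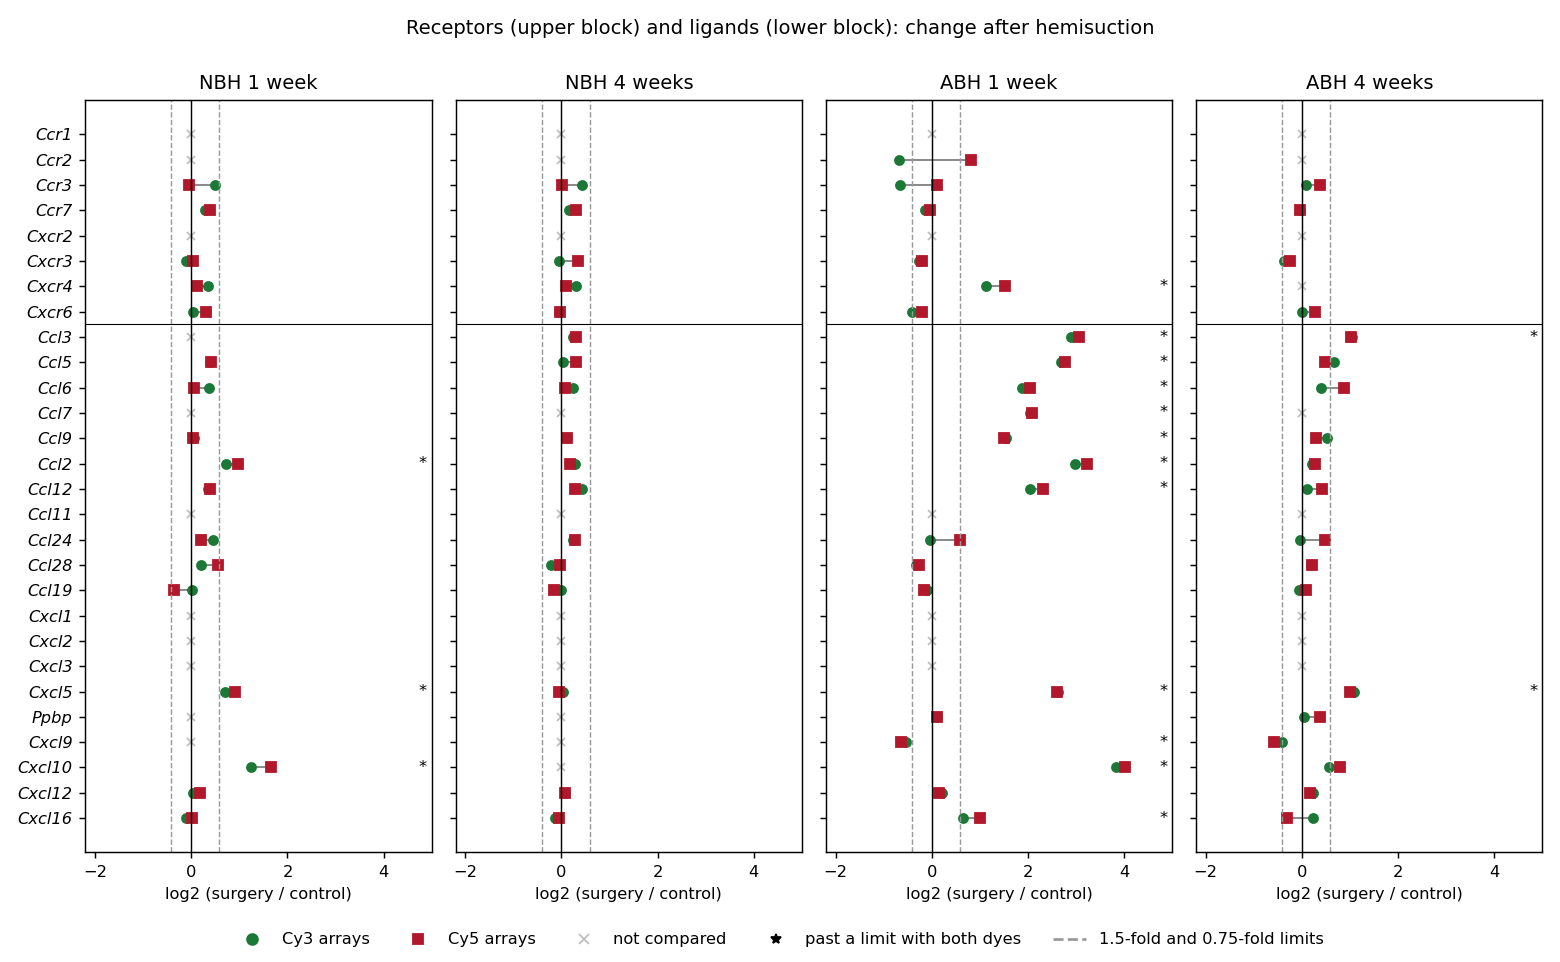
Change of the 8 receptors (upper block) and of the 20 ligands with a probe (lower block) as log2 of surgery over control (x axis) in the 4 comparisons. Green circles are Cy3 and red squares Cy5, dashed lines mark the 1.5-fold and 0.75-fold limits, stars mark genes past a limit with both dyes and crosses mark genes not compared. In ABH 1 week Cxcr4 is the only receptor with a star, whereas 10 ligands lie past the upper limit and Cxcl9 past the lower.

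Ccr2, the receptor that monocytes use to leave the marrow and enter tissue, was well above background with both dyes in ABH 1 week only, at -3.32 and -3.37. The 10 weeks control was at -2.65 with Cy3, the highest value of all arrays, and at -4.23 with Cy5, not well above background. The change was therefore -0.68 with Cy3 and, as a bound, 0.81 with Cy5, opposite directions past both limits. The ABH 1 week pool lay between the 2 control arrays, and the Ccr2 change rests on which of them is used. In the other 6 pools Ccr2 was between -3.59 and -4.34 and not well above background.

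Ccr1, a receptor of Ccl3 and Ccl5 on myeloid cells, was between -3.61 and -4.65 and never well above background. The lowest values were those of ABH 1 week, at -4.51 and -4.65. Cxcr2, the receptor with which neutrophils follow Cxcl1, Cxcl2 and Cxcl5, was between -3.39 and -4.42. Only the Cy3 array of NBH 4 weeks was above background for Cxcr2, at -3.39. Neither Ccr1 nor Cxcr2 entered any comparison, since no pool was well above background with both dyes.

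Ccr3, the eotaxin receptor of eosinophils, was between -2.81 and -3.60. The Cy3 arrays of control P14, control P35 and ABH 1 week were not well above background. Its change differed between the dyes, with 0.49 and -0.06 in NBH 1 week, 0.42 and 0.00 in NBH 4 weeks, and -0.65 and 0.10 in ABH 1 week. The ABH 4 weeks change was 0.09 and 0.38.

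Cxcr3, the receptor of the interferon-induced chemokines Cxcl9 and Cxcl10 on activated T cells, was between -3.02 and -3.80. It changed by -0.27 and -0.20 in ABH 1 week and, as a bound, by -0.38 and -0.24 in ABH 4 weeks. In both ABH pools Cxcr3 lay below the control with both dyes and within the limits. The direction was not the same under all settings, since the mean change in ABH 1 week was 0.07 with quantile scaling, 0.05 with median scaling, 0.02 in the unscaled series table and 0.20 against the P35 control, and in ABH 4 weeks 0.12 against the P35 control. In NBH 1 week the change was -0.12 and 0.04, and in NBH 4 weeks -0.06 and 0.34.

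Cxcr6, the receptor of Cxcl16 on T cells and natural killer cells, was between -2.82 and -3.55 on the probe used. The ABH 1 week pool was at -3.24 and -3.29, against -2.82 and -3.09 in the 10 weeks control, a change of -0.42 and -0.20, past the lower limit with Cy3 alone. On the second probe the mean change was -0.11. In ABH 4 weeks the change was -0.01 and 0.26, in NBH 1 week 0.04 and 0.31, and in NBH 4 weeks -0.06 and -0.03.

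Ccr7 was higher at each older control age. The Cy3 level was -3.36 at P7, -3.07 at P14, -2.94 at P35 and -2.54 at 10 weeks, and the Cy5 level was -3.66, -3.41, -3.17 and -2.73 at the same ages. From P7 to 10 weeks the level was 1.84-fold higher, with changes of 0.82 and 0.93. Cxcr4 and Ccr7 thus ran in opposite directions over the control ages. The step from P35 to 10 weeks was not particular to Ccr7. It was 0.42 on average for Ccr7, 0.42 for Cxcr6 and 0.43 for Cxcr3, whereas Ccr1 changed by -0.27 and Cxcr4 by -0.15. The control ages were not compared under other scalings. After surgery Ccr7 changed by 0.29 and 0.38 in NBH 1 week and by 0.16 and 0.31 in NBH 4 weeks, and by -0.14 and -0.04 in ABH 1 week and -0.04 and -0.03 in ABH 4 weeks. None passed a limit.

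More ligands than receptors passed a limit. Of the 22 listed, 20 had a probe. Ccl21a and Cxcl11 were not analysed here. In ABH 1 week 16 were compared, 10 were higher and 1 was lower, with a median change of 1.74. The plot of ligand levels by pool shows 8 of them. By ABH 4 weeks 2 of 15 were higher, with a median of 0.24. In NBH 1 week 3 of 12 were higher, with a median of 0.35, and in NBH 4 weeks 0 of 12 were called, with a median of 0.13. The ABH 1 week calls stand beside the 4.44% of all genes called higher there, those of ABH 4 weeks beside 0.43% and those of NBH 1 week beside 0.472%.

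**Figure D3:**
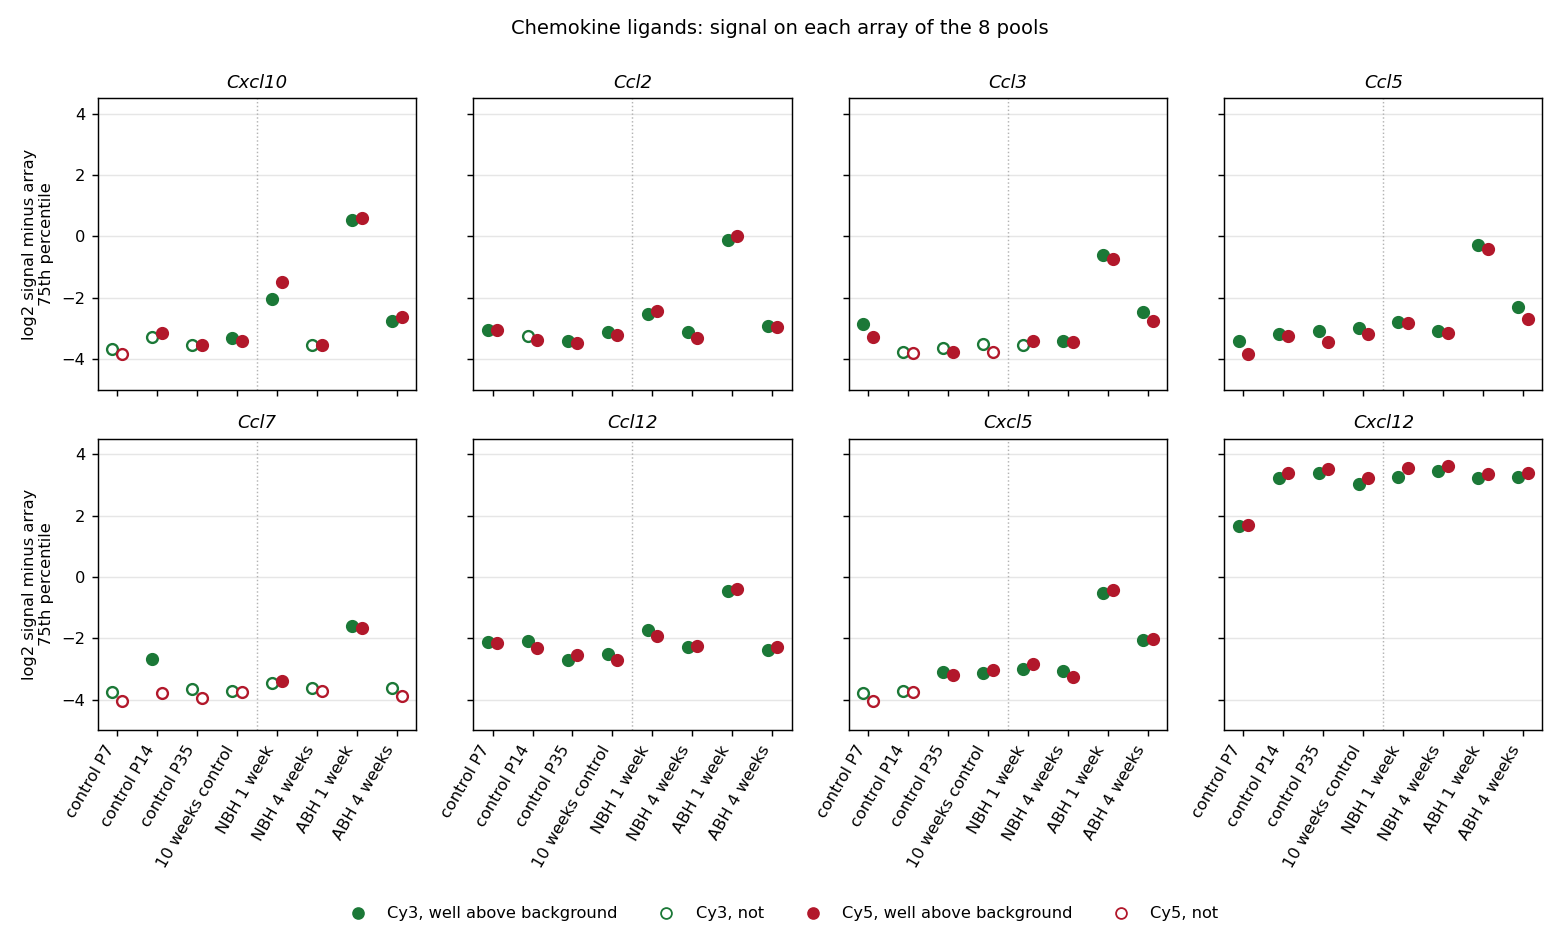
Level of 8 chemokines on the 16 arrays, as log2 signal minus the 75th percentile of the array (y axis), in the 8 pools (x axis). Colours and open points are as for the receptors. All but Cxcl12 have their highest level in ABH 1 week, and Cxcl12 is lowest in control P7 and differs little between the other pools.

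Cxcl10, the interferon-induced ligand of Cxcr3, had the largest change among the ligands. Its level in ABH 1 week was 0.54 and 0.60, against -3.30 and -3.41 in the control, 15.2-fold higher. In NBH 1 week it was -2.04 and -1.48, against -3.28 and -3.14 in control P14, of which only the Cy5 array was above background, and the change was at least 2.73-fold. In ABH 4 weeks it was -2.74 and -2.63, with a change of 0.56 and 0.78 that missed the limit with Cy3. Cxcl9, the other ligand of Cxcr3 with a probe, was lower in ABH 1 week by a bound of -0.53 and -0.65. Its level there was -3.87 and -3.73, against -3.24 and -3.08 in the control.

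All 3 ligands of Ccr2 were higher in ABH 1 week. Ccl2, the main monocyte attractant, was at -0.13 and 0.01, against -3.12 and -3.21 in the control, 8.60-fold higher. Ccl12 was 4.52-fold higher, with changes of 2.03 and 2.32, and Ccl7, which also binds Ccr1, was at least 4.16-fold higher. Of these, Ccl2 was called in NBH 1 week as well, at -2.53 and -2.42 against -3.24 and -3.39, a bound of at least 1.79-fold. Ccl12 changed there by 0.34 and 0.40. At 4 weeks none of the 3 was called in either model. With quantile or median scaling Cxcl10 was the only ligand called in NBH 1 week, and Cxcl9 was not called in ABH 1 week.

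All 5 ligands of Ccr1 were higher in ABH 1 week. Ccl3, made by activated microglia and macrophages, was at -0.61 and -0.72, against -3.50 and -3.77 in the control, at least 7.85-fold higher. Ccl5, also a ligand of Ccr3, was 6.64-fold higher, Ccl6 3.90-fold, Ccl9 2.87-fold and Ccl7 as above. Ccl3 was past the limit in ABH 4 weeks too, at -2.46 and -2.75, at least 2.04-fold higher there, while Ccl5 changed by 0.66 and 0.48 and Ccl6 by 0.40 and 0.88. None of the Ccr1 ligands was called after neonatal surgery. Ccl5 changed by 0.40 and 0.41 in NBH 1 week.

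Among the other ligands of Ccr3, Ccl24 and Ccl28 were compared and not called in any pool. Ccl11 (eotaxin) was above background on 1 of 16 arrays and was not compared. Ccl28 changed by 0.20 and 0.55 in NBH 1 week and by -0.32 and -0.26 in ABH 1 week. Ccl19, the ligand of Ccr7 with a probe, changed by -0.10 and -0.16 in ABH 1 week and was not called in any comparison.

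Of the ligands of Cxcr2, Cxcl5 was called in 3 of the 4 comparisons. It was at -0.51 and -0.43 in ABH 1 week, against -3.14 and -3.04 in the control, 6.14-fold higher. In ABH 4 weeks it was at -2.06 and -2.04, 2.06-fold higher, and in NBH 1 week at -3.00 and -2.84 against -3.70 and -3.74, at least 1.75-fold higher. Cxcl1, Cxcl2 and Cxcl3, the classical neutrophil attractants, were not well above background on both arrays of any pool. Ppbp, stored in platelets, changed by 0.12 and 0.11 in ABH 1 week.

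Cxcl16, the ligand of Cxcr6, was 1.77-fold higher in ABH 1 week, at -1.39 and -1.15 against -2.04 and -2.15. Cxcl12, the ligand of Cxcr4, was not called in any comparison and its changes lay between 0.03 and 0.23. Cxcl12 was at 3.22 and 3.35 in ABH 1 week, against 3.01 and 3.21 in the control. Its level at P7 was 1.67 and 1.70, below the 3.24 and 3.38 of P14, and at 10 weeks, at 3.01 and 3.21, it was below the 3.37 and 3.53 of P35. The Cxcr4 call in ABH 1 week thus stood beside a Cxcl12 change of 0.21 and 0.14, within the limits.

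In the gene order of RefSeq, Cxcr6, Ccr1, Ccr3 and Ccr2 lie in 1 run on chromosome 9 with Ccr9, Xcr1 and Ccr1l1. Of these 3 neighbours, Ccr9 was called lower in ABH 1 week, with changes of -1.03 and -0.44, and none was called higher. The ligands called in ABH 1 week fall partly into 2 runs on chromosome 11, Ccl2, Ccl7, Ccl11 and Ccl12, and Ccl5, Ccl9, Ccl6 and Ccl3. All members of the second run were higher, and of the first all but Ccl11, which was not compared. The runs on chromosome 5 were mixed. There Cxcl5, which was higher, lies with Ppbp, Cxcl3, Cxcl1 and Cxcl2, none of them called. Cxcl10, also higher, lies near Cxcl9, which was lower.

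Of the other chemokine receptors, 11 were listed and 10 had a probe. In ABH 1 week 2 of the 6 compared were called, beside 10.8% of all genes, namely Cx3cr1, the fractalkine receptor of microglia, higher by 0.94 and 0.86, and Ccr9, lower. In ABH 4 weeks 1 of 6 was called, beside 0.626% of all genes, namely Ccr6, a receptor of dendritic cells and lymphocytes, higher by 0.86 and 0.64. None was called after neonatal surgery. Of the 5 atypical receptors, which bind chemokines without signalling through G proteins, 4 were compared and none was called in any comparison, Ackr3 (the other receptor of Cxcl12) included, with 0.10 and -0.13 in ABH 1 week.

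Of 31 genes of the signalling path behind the receptors (G proteins, kinases, arrestins and exchange factors of the Rac family), 4 were higher in ABH 1 week and 0 were lower, 12.9% in all beside the 10.8% of all genes, with a median of 0.16 beside -0.08. Those named here are expressed mainly in blood-derived cells and microglia. Rac2, a small GTPase of leukocyte migration, was 3.21-fold higher, the exchange factor Vav1 2.87-fold and the Src family kinase Lyn 1.86-fold. In the other 3 comparisons 0 of 30 were called. The widely expressed members, such as Gnai2 and Rac1, were not called in ABH 1 week.

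Markers of several cell types that carry these receptors moved in the same comparison. The counts called in ABH 1 week, here and below, stand beside 4.44% of all genes called higher and 6.37% called lower. In ABH 1 week 5 of 10 microglia markers were higher, with a median of 0.66, and their summed level was 132 with Cy3 and 128 with Cy5, against 103 and 98.6 in the control. Fcrls was 2.96-fold and Aif1 2.63-fold higher, while P2ry12 changed by 0.49 and 0.49. Of the 10 microglia markers, 8 lay above 0 and 2 below 0 with both dyes. Of 7 markers of border macrophages (the macrophages of meninges and vessels) 6 were compared and 3 were higher. The summed level was 8.01 and 8.34, against 1.98 and 1.88. The 3 higher markers were Ms4a7, 11.4-fold higher, F13a1, 5.47-fold, and Pf4, 4.33-fold, whereas Lyve1 changed by -0.25 and -0.06 and Cd163 was not well above background.

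Of the 9 neutrophil markers with a probe, 8 were compared, and S100a8 and S100a9 were higher, 4.68-fold and 4.28-fold. Mpo and Elane, the granule enzymes, changed by 0.05 and -0.06 and by -0.25 and -0.15. The summed level of the list was 4.66 and 4.43, against 3.64 and 3.18. Of the 12 markers of T cells and natural killer cells, the main carriers of Cxcr3 and Cxcr6, 9 were compared. Of these, 3 were lower (Cd8a, Cd8b1 and Cd2) and 0 higher, and the summed level of the list was 11.7 and 12.4, against 15.5 and 14.5. Cd3d, Cd3g and Ncr1 were not well above background in either pool. In NBH 1 week 1 of 5 neutrophil markers compared was higher, beside 0.472% of all genes. There 1 of 7 T cell and natural killer cell markers compared was lower, beside 0.427% of all genes.

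Of 3 B cell markers compared, 1 was higher, Cd79b by 2.01-fold, and 2 were lower, Cd79a among them, with a median of -0.52. Among the eosinophil and mast cell markers, 3 were compared and 1 was higher, with a median of 0.12. Of 5 dendritic cell markers compared, 1 was higher, Itgax at least 6.56-fold, and 3 had changes below 0 with both dyes, with a median of -0.19, and among the monocyte markers with a probe Chil3 was 2.06-fold higher and Plac8 changed by -0.37 and -0.28. Blood markers rose too, with 3 of 4 higher, Alas2 4.24-fold, and a summed level with Cy3 of 109 against 53.0. In NBH 4 weeks 3 of 4 blood markers were higher as well, beside 0.214% of all genes, with a summed Cy3 level of 101 against 57.7. Their median change was 0.55 in NBH 1 week with 0 called, and -0.43 in ABH 4 weeks with 1 lower, beside 0.196% of all genes. None of the microglia or border macrophage markers was called in the other 3 comparisons. The part of these cells and of blood in the Cxcr4 and ligand values was not tested.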

How the data were processed

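The authors pooled the RNA of 4 animals per group, labeled it with Cy3 or Cy5, and scanned and quantified the arrays with Agilent Feature Extraction 11.0.1.1. The deposited scanner files hold spot intensity in arbitrary units, namely median signal and median local background (used here) and a background-subtracted processed signal. The series table repeats that deposited processed signal, linear and unscaled, for the dye used, within 0.497% of the scanner files.

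Background was corrected with normexp (offset 50, limma 3.58.1, R 4.3.3). The log2 values were computed here from the deposited intensity, outlier and control spots were dropped, spots of a probe were averaged, and the 75th percentile of the array was subtracted (Python 3.11.15, numpy 2.4.6, pandas 2.3.3, matplotlib 3.10.9). Of 55681 probes, 26582 carried the accession of 1 gene in RefSeq. The signal over background limits the precision. A pool dim in 1 comparison was held at the higher of its own signal and the lowest signal well above background. No sample was left out.

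The receptors, the ligand, signalling and cell type lists and the limits were chosen with earlier results of these data known. Named are all receptors and ligands, up to 5 called genes of each other list, and the 3 genes nearest in profile to a receptor whose range was at least 1. Markers of the cell lists that were not called, the 10 neuron markers and Gnai2 and Rac1 were named after their values were seen. A few genes of the lists are not reported here by name. The methods describe genes higher on chip 1 and lower on chip 2, but both chips carry the same pools, so the same direction with both dyes was required. The methods' LOWESS and p-value limit were not applied, since each array carries 1 dye and each group is 1 pool. The calls of the receptors and ligands and the counts over all genes were repeated under 13 alternatives. The calls of the other lists are given under the main setting alone.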

Additional observations from a re-analysis of the deposited data

Results flagged for a closer look

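In 5 pairs of comparisons a receptor or ligand moved up with both dyes in 1 model and down with both dyes in the other at the same time after surgery. The differences between the models were not tested, since each group is 1 pool, and none of the changes passed a limit. Ccr7 changed by 0.34 on average on the log2 scale in NBH 1 week and by -0.090 in ABH 1 week, and by 0.24 in NBH 4 weeks and -0.035 in ABH 4 weeks. With quantile and with median scaling the ABH 1 week change of Ccr7 was 0.18 and 0.19. Against the P35 control it was 0.33, so the opposite signs were not seen in these settings. At 4 weeks the Ccr7 signs stayed opposite with quantile and with median scaling. Against the P35 control the ABH 4 weeks change was 0.39, so there they were not opposite. In the unscaled series table both changes were negative, at -0.15 in NBH 4 weeks and -0.40 in ABH 4 weeks. Against the control of the ABH pools the NBH 4 weeks change was -0.19, also negative. Cxcr6 changed by 0.17 in NBH 1 week and by -0.31 in ABH 1 week. The signs of Cxcr6 were not opposite in this way with quantile scaling, where the changes were -0.0060 and 0.0018, and against the P35 control the ABH 1 week change was 0.11. With median scaling the ABH 1 week change of Cxcr6 was -0.02. Ccl28 changed by 0.37 in NBH 1 week and by -0.29 in ABH 1 week, and with the signs exchanged by -0.12 in NBH 4 weeks and 0.20 in ABH 4 weeks.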

How the results depend on the processing

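Cxcr4 in ABH 1 week was called higher in all 11 alternatives that gave it a value, with a mean change of 1.13 to 2.52. The main values were reused with symmetric limits, with 2-fold limits and without the background filter, so those outcomes were fixed in advance. Each dye alone also had to pass, since the main call already required both. The signal, scaling, offset and control alternatives gave values of their own. Cxcr4 was not compared when all 4 arrays had to be well above background, which gave 0 calls, and has no second probe, so that alternative gave 0 calls as well. Without scaling in the series table, 1 receptor (Cxcr6) was lower in NBH 4 weeks and 1 (Cxcr3) in ABH 4 weeks. Cxcr3 was also the 1 receptor lower in ABH 4 weeks with a normexp offset of 0, and Cxcr6 the 1 lower in NBH 4 weeks against the 10 weeks control. With 1 dye alone, 2 to 4 receptors were called in ABH 1 week (Cy5: Cxcr4 and Ccr2 higher, Cy3: Cxcr4 higher and Ccr2, Ccr3 and Cxcr6 lower), 0 to 1 in ABH 4 weeks (Cy3: Ccr2 lower) and 0 in the others. The other alternatives left the receptor counts the same. The cause of these changes was not tested.

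The counts over all genes moved more. In ABH 1 week median scaling gave 1357 higher and 254 lower genes in place of 725 and 1039 and moved the median of all genes from -0.08 to 0.21, and Cy3 alone gave 2608 lower. The higher genes ranged from 14 to 669 in NBH 1 week, 6 to 329 in NBH 4 weeks, 113 to 1357 in ABH 1 week and 10 to 555 in ABH 4 weeks, and the lower genes from 3 to 786, 15 to 1266, 22 to 2608 and 1 to 966. The lowest counts came from the wider 2-fold limits or from second probes. Second probes covered fewer genes, in ABH 1 week 4224 in place of 16320. The 10 ligands higher in ABH 1 week were 8 with all 4 arrays above background and 9 with 2-fold limits. With all 4 arrays required, Ccl3 and Ccl7 were not compared, since their control was dim. Each of the 10 has 1 probe, so the alternative with second probes could not call them. The 2 ligands compared there were others, with 0 higher. The 3 ligands called in NBH 1 week were not compared when all 4 arrays had to be above background, since control P14 was dim for each. With quantile scaling, median scaling or 2-fold limits 1 of the 3 was called.

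No paired analysis was possible because each group is 1 pool, its replicate numbers are the dyes, and every change is already taken within a dye with no residual to test. Signal over background limits Ccr1, Ccr2 and Cxcr2 most, and no statement on animals can be made from these pools.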
